A study of Caenorhabditis elegans with 2 samples.

Results

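Divergent promoters are stretches of sequence that lie upstream of 2 genes at once, one read to the left and the other to the right. LSY-2 peaks at such promoters were taken from the deposited IDR list, which holds the peaks that passed the authors' reproducibility threshold. A peak was included when its summit lay in the promoter windows of at least 2 protein-coding genes on opposite strands. Around each annotated transcript start, a promoter window covered 1000 bp on the upstream side and 200 bp on the downstream side. The rule used position and no signal value, and it gave 827 of 4218 peaks (19.6%, 95% exact Clopper-Pearson interval 18.4 to 20.8).

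The peaks come from ChIP-seq of eGFP-tagged LSY-2 in whole L1 larvae, the first larval stage, of Caenorhabditis elegans. The animals were of strain OP367, with the genotype unc-119(tm4063) III; wgIs367, where wgIs367 is the integrated transgene for the tagged protein. Sexes were mixed, and there was 1 group with 2 biological replicates. All animals therefore carried the unc-119 mutation and the transgene, whose promoter the labels do not name, and whole larvae do not resolve the cell type in which a site was bound. Without a second group no test between conditions exists. Peaks of 1 list are not replicates, so classes of peaks are set side by side here with counts, medians and counting intervals only.

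LSY-2 is a C2H2 zinc finger protein named for its role in making the left and right ASE taste neurons differ. Worm genes lie close together, and head-to-head pairs often share 1 short intergenic region that holds regulatory sequence for both. Many worm transcripts lose their first bases when a spliced leader is attached, so an annotated start can be the splice acceptor and lie inside the true transcript. For a peak between 2 diverging starts, ChIP-seq does not tell which gene, if either, is regulated.

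The summit base with 50 bases on each side is shown for 12 of the strongest members with no annotated gene in that window, because several letter strings recurred in them. Sequences are from the RefSeq genome of the ce11 (WBcel235) build, read 5′ to 3′ on the plus strand, with the gene on the minus strand named first. Capitals mark 6 strings that were searched on both strands, so that each can also appear as its reverse complement. They are ACCGTA, which had the largest excess over single-gene promoters, and GAGACC, which is part of a longer common string. The repeat GAGAGA and the string GACGCA were common near LSY-2 summits of all classes. The last ones, GCAAAC and the CG-rich string ACGCGC, were far more frequent at members than in their flanks. Where marked strings touch or overlap, the capitals run together.
rpl-20/Y17G9B.5, chrIV:4750027-4750127: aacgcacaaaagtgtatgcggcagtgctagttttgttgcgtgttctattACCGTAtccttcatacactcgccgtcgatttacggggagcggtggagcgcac
rpl-15/K11H12.8, chrIV:654880-654980: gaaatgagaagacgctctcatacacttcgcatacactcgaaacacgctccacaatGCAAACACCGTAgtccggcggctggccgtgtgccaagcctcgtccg
F55A11.1/syx-5, chrV:11764509-11764609: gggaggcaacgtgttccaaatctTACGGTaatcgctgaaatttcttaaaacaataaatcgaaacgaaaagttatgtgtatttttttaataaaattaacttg
cct-8/Y55F3AR.2, chrIV:1094311-1094411: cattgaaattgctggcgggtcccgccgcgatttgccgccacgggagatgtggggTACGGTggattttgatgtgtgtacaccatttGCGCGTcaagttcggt
gmps-1/cap-2, chrII:10868909-10869009: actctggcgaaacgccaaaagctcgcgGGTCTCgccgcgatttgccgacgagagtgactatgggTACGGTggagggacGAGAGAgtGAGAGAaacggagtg
mig-5/cct-1, chrII:8185162-8185262: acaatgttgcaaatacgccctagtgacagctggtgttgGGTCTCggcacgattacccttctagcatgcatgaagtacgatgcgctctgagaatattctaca
cup-14/ndub-8, chrII:13872647-13872747: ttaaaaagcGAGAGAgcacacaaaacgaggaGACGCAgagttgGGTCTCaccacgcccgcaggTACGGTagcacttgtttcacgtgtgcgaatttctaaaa
ubq-2/frg-1, chrIII:12978955-12979055: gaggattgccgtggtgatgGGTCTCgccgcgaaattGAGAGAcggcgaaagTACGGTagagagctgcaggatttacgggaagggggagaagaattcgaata
rps-23/dpm-3, chrIV:12391279-12391379: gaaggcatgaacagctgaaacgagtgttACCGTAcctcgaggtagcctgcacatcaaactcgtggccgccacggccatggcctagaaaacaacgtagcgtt
T27E9.2/ant-1.1, chrIII:13463060-13463160: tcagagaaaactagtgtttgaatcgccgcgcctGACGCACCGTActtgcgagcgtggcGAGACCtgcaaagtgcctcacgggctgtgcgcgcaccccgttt
wapl-1/htz-1, chrIV:4445856-4445956: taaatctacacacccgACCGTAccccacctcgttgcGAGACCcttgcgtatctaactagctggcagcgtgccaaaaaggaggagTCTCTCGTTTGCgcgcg
npp-3/top-2, chrII:11874805-11874905: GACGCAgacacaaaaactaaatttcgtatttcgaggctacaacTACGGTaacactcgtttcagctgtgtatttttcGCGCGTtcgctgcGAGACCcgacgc

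The string ACCGTA stood in 11 of these 12 windows and GAGACC in 7, while GAGAGA was in 4, GACGCA in 3, and GCAAAC and ACGCGC in 2 each. The window of mig-5 and cct-1 lacked ACCGTA. In the window of rpl-15 and K11H12.8, GCAAAC was followed directly by ACCGTA, and in that of T27E9.2 and ant-1.1, GACGCA and ACCGTA overlapped. A match describes the letters and is not a mapped binding site.

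The peak between Y17G9B.5 and rpl-20, a gene for a protein of the large ribosomal subunit, had a signal of 5790.25 in replicate 1 and 4325 in replicate 2. Its signal in the pooled list was 10070.5, and its summit lay 299 bp from the start of rpl-20 and 163 bp from that of Y17G9B.5. The peak between K11H12.8 and rpl-15, another large-subunit gene, had signals of 4926 and 3705 and a pooled signal of 8593. Both were higher in replicate 1, the replicate with the higher level across the whole list (median log2 ratio 0.34 over all IDR peaks). Signal here is the authors' value for a peak, and as the sources used here do not name its statistic, only ratios and ranks within a list are read from it.

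The third member by signal stood between F55A11.1 and syx-5, a syntaxin gene of membrane fusion, on chrV:11764259-11764871, with 4115 in replicate 1 and 2626 in replicate 2. The peak between Y55F3AR.2 and cct-8, a subunit gene of the CCT chaperonin that folds actin and tubulin, had 3452 and 2673. A second chaperonin subunit gene, cct-1, shared its promoter with mig-5, a Dishevelled gene of Wnt signalling, and there the signals were 2577 and 1905. In each of these 3 the summit lay between the starts, and in each of them replicate 1 was the higher.

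Other pairs followed among the 20 strongest members. The signals between ifet-1, a translational repressor gene, and rps-1, a small-subunit ribosomal gene, were 3204 and 2653. Those between gmps-1, GMP synthetase, and cap-2, actin capping protein, were 3089.76 and 2489. The peak of lin-53, a histone-binding protein of the DREAM and other chromatin complexes, and nra-2 had 2919.82 and 2176. These 3 pooled signals fell between 5071 and 5833. The pairs rps-20/ekl-4, cup-14/ndub-8, mcrs-1/atp-1 and clsp-1/eef-2 followed with pooled signals from 4877 down to 3001, where ndub-8 and atp-1 encode parts of respiratory complex I and ATP synthase and eef-2 an elongation factor.

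Pooled signals from 2598 down to 1959 were found at ubq-2/frg-1, rps-23/dpm-3, eef-1A.1/rfc-4, T27E9.2/ant-1.1, Y54G11A.17/elof-1, wapl-1/htz-1, npp-3/top-2 and ify-1/rpl-22. Both genes act on chromosomes at wapl-1, whose product releases cohesin, and htz-1, the histone variant H2A.Z. At npp-3, a nucleoporin gene, and top-2, topoisomerase II, the summit lay 67 bp from the npp-3 start and 293 bp from that of top-2. At the lower end, the members just inside the authors' threshold were stip-1/C07E3.9 (pooled signal 43.3), nhr-182/F41B5.12 (43.02) and ift-43/mdt-26 (42.6). The strongest pooled peaks of the same geometry just outside it were rpl-11.1/T22F3.2 (42.2), let-504/srrt-1 (42.2) and F46C5.6/agxt-1 (42.1).

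**Figure D1:**
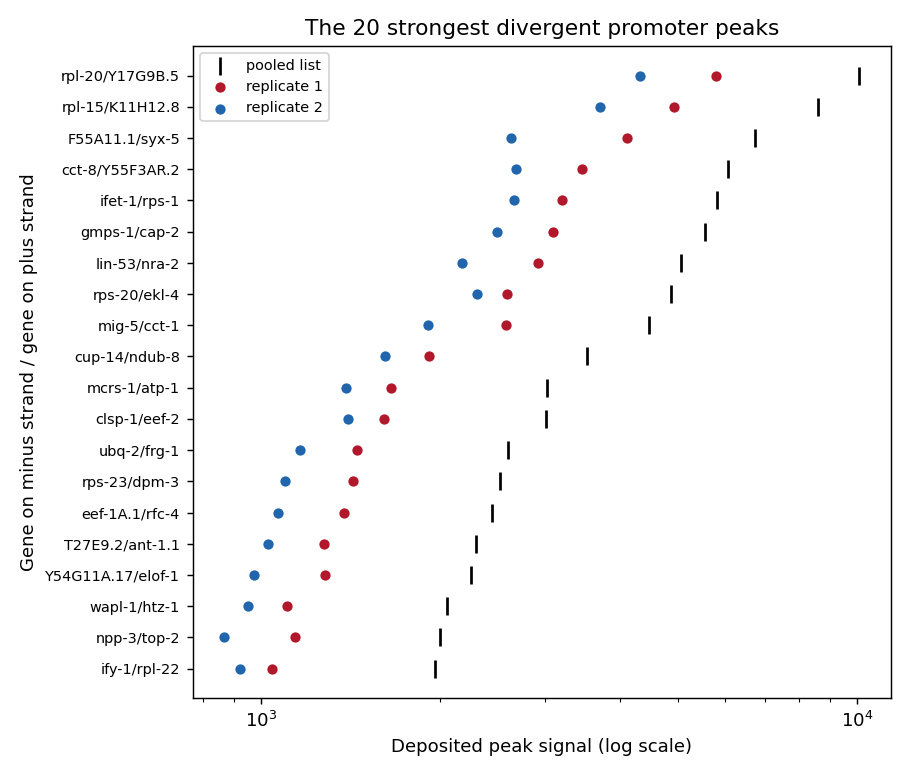
Deposited peak signal (log axis) of the 20 strongest divergent promoter peaks, each row named by the gene on the minus strand and the gene on the plus strand. Red and blue points are replicates 1 and 2 and black bars the pooled list. Replicate 1 lies to the right in all 20 rows, and the pooled signal runs from 1959 at ify-1/rpl-22 to 10070.5 at rpl-20/Y17G9B.5.

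Divergent promoters held a larger share of the peaks the higher the peaks ranked. Of the 20 strongest IDR peaks 12 were at divergent promoters, and of the 100 strongest 59. The share was 37% at the next 400 ranks, 33.2% at 501 to 1000, 21.4% at 1001 to 2000, 12.7% at 2001 to 3000 and 9.28% at 3001 to 4218. In the pooled list below the threshold it was 3.84% at ranks 4219 to 10000 and 1.37% at 20001 to 30000. The share fell from each of these bands to the next, and each replicate list ranked on its own gave a similar series, with 59 of the 100 strongest in replicate 1 and 61 in replicate 2.

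**Figure D2:**
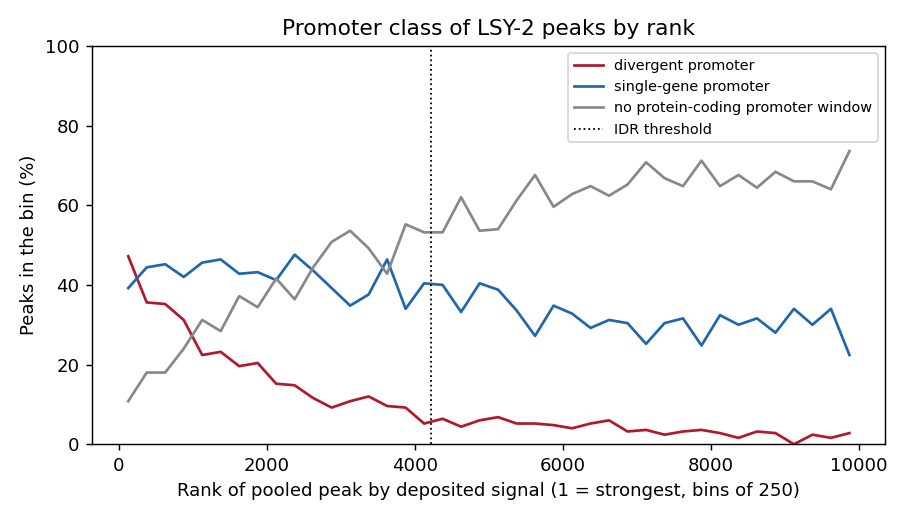
Share of pooled peaks (%) in each promoter class against the rank of the peak by deposited signal, in bins of 250 peaks, with the IDR threshold dotted. The red line of divergent promoters falls with rank, the grey line of peaks in no promoter window rises, and the blue line of single-gene promoters stays near its first value of 39.2% or above it over most bins up to the threshold and is lower beyond it.

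Sequence that meets the rule is scarce. It covered 2.35 Mb, or 2.35% of the 6 nuclear chromosomes, and held 351 IDR peaks per Mb. Sequence in the window of 1 gene held 75 per Mb, overlapping windows of genes on 1 strand 168 per Mb, and sequence outside every protein-coding window 21.1 per Mb. The density at divergent promoters was thus above that of the other classes in the IDR list, and with as many of the strongest peaks of either replicate it was 347 (replicate 1) and 352 (replicate 2). Among all 30000 pooled peaks, most of which did not pass the threshold, the share of divergent promoters was 4.44%.

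By chromosome the density was 546 per Mb on III, 466 on I, 344 on II, 318 on IV, 219 on X and 212 on V. The X chromosome held 28 members, 3.39% of them, and 5.44% of the divergent promoter sequence. Their median pooled signal was 99.5 against 169 on IV and 157 on I. For comparison, single-gene promoters had 70.1 peaks per Mb on X and 45.2 on V.

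The median pooled signal was 148 at divergent promoters, 90.2 at the 1770 single-gene promoter peaks and 69.2 at the 1560 peaks in no window. The ratio of the first to the second was 1.61 in replicate 1 (83.3 against 51.7) and 1.60 in replicate 2 (66.7 against 41.5), a mean of 1.61 ± 0.00453 (SD, n = 2). The distributions overlapped, as the middle 50% of members ran from 83.6 to 283 and that of single-gene peaks from 60.3 to 165. Without peaks in the window of a ribosomal protein gene the pooled ratio was 1.57, and the 45 members with such a gene had a median of 669.

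A summit lay within 200 bp in both replicate lists for 821 of 827 members (99.3%), close to the 99.1% of all IDR peaks, a list already selected by the authors for reproducibility. The median distance between the replicates' summits was 13 bp at divergent promoters, 19 bp at single-gene promoters and 26 bp in no window. Spearman's rho of the replicate signals over peaks was 0.94, 0.83 and 0.65 in the same order, described over peaks that share libraries and that differ in their range of signal. Replicate 1 was the higher at 662 of the 821 members.

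Some members differed between replicates by more than the common offset. The largest excess in replicate 1 was at ctns-1/cdc-48.2, with 49.5 against 9.98 (log2 ratio 2.31), followed by cids-2/phip-1 (2.26), aka-1/ubc-6 (2.14), glb-1/ZK637.12 (2.06) and dnj-29/ndua-2 (2.01). At aka-1/ubc-6 the replicate 1 value belongs to a peak that was also the nearest to the stronger member of the same pair, so its ratio rests on the 200 bp matching. Such sharing touched 4 of 827 members. The largest excess in replicate 2 was at H27M09.5/syp-4, with 4.44 against 20.3 (log2 ratio -2.19). A pair of unnamed genes on chromosome IV (-2.14), kbp-3/nurf-1 (-1.27), ceh-100/lips-15 (-1.20) and Y105E8A.2/slc-30A5 (-0.99) came next. Among these 10 members the highest pooled signal was 313, at the unnamed pair on IV, above the upper quartile of members (283). There the replicate signals were only 28.8 and 127, and the replicates' summits lay 88 bp apart, against a median of 13 bp over members. Whether its ratio depends on the 200 bp matching was not tested. The next highest pooled signal was 114, at dnj-29/ndua-2.

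The rule favours diverging starts, because its windows reach farther upstream than downstream, and the geometry is given as a description. The nearest starts on the 2 strands diverged at 824 members, and at 777 (94.0%, 92.1 to 95.5) the summit lay between them. At the other 3 the starts were crossed, so that the first bases of the transcripts overlap, by 55 bp at Y50D4A.4/wrb-1. The shortest distance between diverging starts was 12 bp, at F32D8.14/F32D8.5, and the longest were 1919 bp at cnx-1/panl-3, 1771 bp at mdh-1/F46E10.3 and 1659 bp at mif-4/ipla-6. The median was 490 bp, with the middle 50% from 305 to 746 bp. Windows of exactly 2 genes held 767 summits, those of 3 genes 59 and those of 4 genes 1.

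Summits lay close to a start. The median distance was 138 bp to the nearer start and 329 bp to the farther, against 238.5 bp to the only start of single-gene promoter peaks. Part of this follows from the rule, since a summit between 2 starts has 2 chances to be near one. At 743 members (89.8%) a start lay within 300 bp, against 60.7% of single-gene peaks, and at 371 members (44.9%) both starts did. Wider regions had the summit farther in, with a median distance to the nearer start of 65 bp for starts up to 300 bp apart, 136 bp for 301 to 500 bp, 184 bp for 501 to 700 bp, 214 bp for 701 to 1000 bp and 337.5 bp beyond. As a share of the distance between the starts, the median distance to the nearer start was 31.8%, 35.3%, 32.4%, 25.8% and 26.0% in these classes. The midpoint would be 50%, which is also the largest value possible. No comparison with summits placed at random between the starts was made, so no preference for a start is read from these shares.

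Most summits were in intergenic sequence, at 679 members (82.1%), while 50 lay in a 5′ UTR, 48 in a non-coding gene, 41 in an intron, 6 in a coding exon and 3 in a 3′ UTR. Introns held 4.96% of members and 17.5% of single-gene promoter peaks. The letters TTNCAG, a form of the splice acceptor, stood directly before the annotated start of 582 of the 1665 genes with a divergent promoter peak (35.0%, 32.7 to 37.3) and of 19.0% of all protein-coding genes. For such genes the annotated start may be where the leader is joined, and the distances above then run to that point.

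A few divergent promoters had more than 1 peak. The 827 members belonged to 804 distinct pairs of nearest genes, of which 21 had 2 peaks and 1 had 3. That 1 was F40F11.3/mig-38, with starts 1382 bp apart, outer summits 847 bp apart and pooled signals from 55.7 to 224. Among pairs with 2 peaks, T26A8.4/pdtf-1 had the strongest, with 1740.16 at 1 and 176 at the other.

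Seen from the genes, 3385 of 19973 protein-coding genes had a promoter peak (16.9%) and 1665 had a divergent promoter peak (8.34%), which is 49.2% of the genes with any promoter peak. A head-to-head partner, meaning a protein-coding gene whose start lay within 2000 bp on the other side, was found for 5731 genes (28.7%). Of those, 1647 had a divergent promoter peak (28.7%).

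The bound share of head-to-head pairs differed with the distance between their starts. Of 2724 pairs of adjacent diverging starts 790 had a member peak (29.0%, 27.3 to 30.7). Pairs were counted differently from the 5731 genes above, so the shares of pairs and of genes need not rest on the same genes. The share was 36.1% of 554 pairs with starts up to 300 bp apart and rose to 51.3% (46.4 to 56.1) of 431 pairs 301 to 500 bp apart. It was 37.9% at 501 to 700 bp, 30.4% at 701 to 1000 bp and 8.05% (6.32 to 10.1) of 857 pairs above that. The maximum at 301 to 500 bp was also seen with each replicate's strongest peaks alone (50.6% and 50.1%). The length where both windows overlap differed between the classes, and above 1000 bp the rule leaves less of the region. It was 0.328 Mb for the 554 pairs up to 300 bp apart and 0.344 Mb for the 431 pairs at 301 to 500 bp. The next classes had 0.427 Mb for 428 pairs and 0.509 Mb for 454 pairs, and the 857 pairs above 1000 bp had 0.483 Mb. The classes therefore differ in searched length per pair. Whether the maximum stays at 301 to 500 bp with equal length was not tested.

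**Figure D3:**
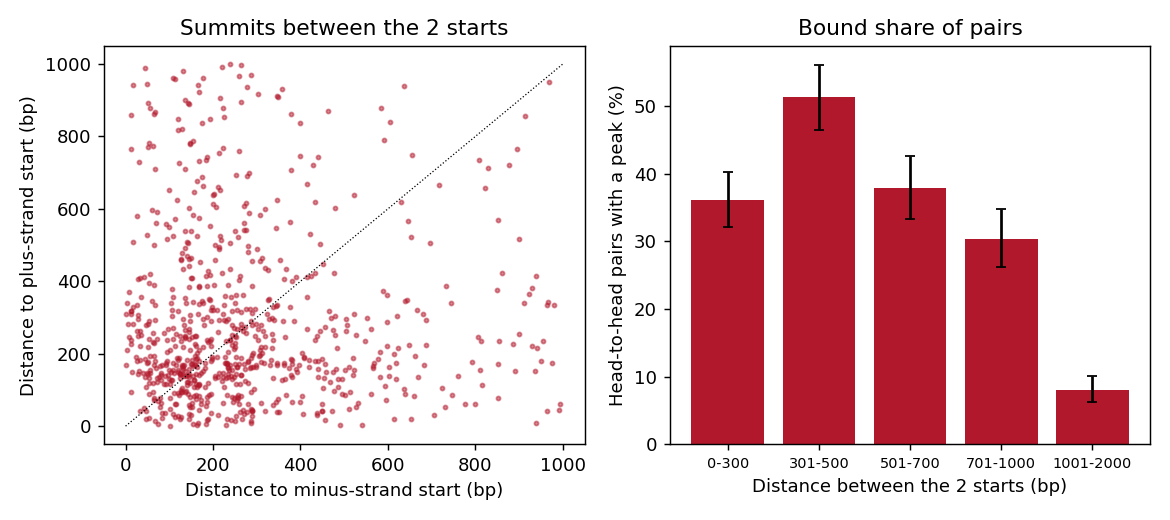
Left, distance (bp) from the summit to the start on the minus strand and to the start on the plus strand for the members whose summit lay between them, with the line of equal distance dotted. Right, share (%) of head-to-head pairs with a peak by distance between the starts (bp), with 95% exact intervals as error bars, highest at 301 to 500 bp (51.3%) and lowest above 1000 bp (8.05%). Searched length per pair differs between these classes.

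To set genes with and without a partner side by side over an equal length per start, summits within 300 bp upstream of any start of the gene were counted. Genes with more starts were thus searched over more sequence. Such a summit was found at 820 of 4666 genes whose partner started 301 to 2000 bp away (17.6%, 16.5 to 18.7). It was found at 367 of 8048 genes with no head-to-head partner and at least 1000 bp free upstream (4.56%, 4.11 to 5.04). Genes without a partner but with another gene within 1000 bp upstream had 6.13%. The intervals cover the counting of genes only, and gene function and expression level differ between these classes and were not matched.

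Genes of the translation machinery were bound at promoters of both kinds. Cytosolic ribosomal protein genes had any promoter peak at 73 of 81, against 16.9% of all protein-coding genes, and a divergent promoter peak at 47 of 81 (58.0%), against 8.34%. Of those with a head-to-head partner 47 of 53 had one (88.7%), against 28.7%, and of those with any promoter peak 64.4% had it at a divergent promoter, against 49.2%. The median pooled signal of the divergent ones was 669, against 148 for all members, and the 4 strongest were rpl-20, rpl-15, rps-1 and rps-20. The ribosomal gene was the nearer of the 2 genes in 15 of 47 cases, so in the others the summit was closer to the partner's annotated start. Promoters with ribosomal genes on both sides are counted here once for each gene.

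Mitochondrial ribosomal genes had a divergent promoter peak at 24 of 70 (any promoter peak at 37), or 24 of 30 with a partner, led by mrps-28 (pooled signal 694), mrpl-35 (503), mrps-7 (479.55) and mrps-21 (374). Translation factor and aminoacyl-tRNA synthetase genes had one at 29 of 72 (any at 47), or 29 of 37 with a partner. Their strongest were eef-2 (3001), eef-1A.1 (2443), eif-3.I (1165) and iff-2 (1019.8), where the first pair are elongation factors, eif-3.I is part of initiation factor eIF3 and iff-2 is an eIF5A protein. The median pooled signal was 198 in the mitochondrial and 168 in the factor list, against 148 for all members. Of all protein-coding genes, 8.34% had a divergent promoter peak and 16.9% any promoter peak. With a partner 28.7% had a divergent promoter peak, and of genes with any promoter peak 49.2% had one.

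Among genes for energy and protein turnover, respiratory chain and ATP synthase genes had a divergent promoter peak at 28 of 60 (any at 45), or 28 of 40 with a partner. The strongest were ndub-8 (3517), atp-1 (3019), and nduc-2 and cox-6B, which share 1 peak (1014). All 8 CCT chaperonin genes had a head-to-head partner and a member peak, from cct-8 (6085) and cct-1 (4469) through cct-6 (245) and cct-5 (189) down to cct-2 (59.8). The CCT gene was the nearer of the 2 genes at 2 of 8. Proteasome genes had one at 19 of 33 (any at 27), or 19 of 24 with a partner, led by pas-4 (1898), rpn-5 (1566), rpn-3 (722) and rpn-6.1 (472). Vacuolar sorting and Rab GTPase genes had one at 18 of 58 (any at 29), or 18 of 28 with a partner, led by rab-11.1 (1105), vps-25 (908), rab-18 (632) and vps-32.1 (439). The median pooled signal was 227, 171, 211 and 191 in these 4 lists, against 148 for all members. For comparison, 8.34% of all protein-coding genes had a divergent promoter peak and 16.9% any promoter peak. The divergent share was 28.7% of genes with a partner and 49.2% of genes with any promoter peak.

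Of genes with nuclear functions, spliceosome and Sm/LSm genes had a member peak at 27 of 52 (any promoter peak at 33), or 27 of 34 with a partner, and their strongest were prp-8 (1512), rsp-5 and snr-3, which share 1 peak (994), and snr-6 (905). Nuclear pore genes had one at 16 of 37 (any at 29), or 16 of 22, with npp-3 (1994), npp-14 (355), ran-5 (327) and imb-1 (257) first. RNA polymerase II and Mediator genes had one at 12 of 35 (any at 19), or 11 of 13, and their strongest were rpb-3 (1898), mdt-19 (601), rpb-10 (567) and rpb-7 (338). DNA replication genes had one at 10 of 24 (any at 20), or 10 of 14, led by rfc-4 (2443), orc-1 (879.5), cdc-6 (531) and orc-5 (237). In the DREAM complex, which represses cell cycle genes, lin-53 (5071), lin-54 (1089), efl-1 (485) and lin-35 (245) had one, 4 of 8 genes (any at 5). The median pooled signal was 242 for splicing, 127 for the nuclear pore, 215 for RNA polymerase II and Mediator, 149.8 for replication and 787 for DREAM genes. Over all members it was 148, above the nuclear pore value and close to that of replication. Across all protein-coding genes 8.34% had a divergent promoter peak and 16.9% any promoter peak. The divergent share was 28.7% with a partner and 49.2% of genes with any promoter peak.

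Some large gene families had few promoter peaks of any kind, at 10 of 1260 chemoreceptor, 5 of 240 C-type lectin and 10 of 173 cuticle collagen genes, against 16.9% of all protein-coding genes. Of those bound, 60.0%, 60.0% and 70.0% (6 of 10, 3 of 5 and 7 of 10) were bound at a divergent promoter, against 49.2%. With so few genes no excess is read from these shares. Chemoreceptor genes had a divergent promoter peak at 6 of 1260 (0.476%), and at 6 of 287 with a head-to-head partner (2.09%), with srh-16, sri-5, sre-1 and srd-4 the strongest. C-type lectin genes had one at 3 of 240, or 3 of 82 with a partner, namely clec-53, clec-104 and clec-87. Cuticle collagen genes had one at 7 of 173, or 7 of 48 with a partner (14.6%), led by col-38, col-71, bli-6 and col-8. Over all protein-coding genes 8.34% had a divergent promoter peak, and 28.7% of those with a partner did. The median pooled signal was 110.1, 112 and 149 in these 3 lists, against 148 for all members. In the collagen list the summit was nearer to the partner at 6 of 7 genes, and col-38 shared its peak (835) with rpl-5. This was not particular to collagens. The listed gene was the nearer at 0 of 3 C-type lectin, 9 of 24 mitochondrial ribosomal and 11 of 28 respiratory chain genes. It was the nearer at 13 of 19 proteasome, 7 of 10 replication, 10 of 18 vacuolar sorting and 15 of 29 translation factor genes. Of 15 genes for ASE left/right asymmetry, 1 had a head-to-head partner, and that gene, lsy-13, had a member peak shared with mel-46, with signals of 51.1 in replicate 1 and 48.8 in replicate 2.

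At 25 members both nearest genes belonged to a list, and their median pooled signal was 328, against 201 for the 208 members with 1 such gene and 134 for the 594 with none. Cytosolic ribosomal protein genes, whose 45 members had a median of 669, were not set apart here. Whether the order holds without them was not tested. Both genes encoded cytosolic ribosomal proteins at rps-10/rpl-24.1 (1671), rps-14/rpl-36 (496) and rpl-39/rps-30 (257), and both encoded splicing proteins at snr-3/rsp-5 (994) and rsp-2/rsp-1 (337). Mixed pairs were pas-4/rpb-3 (1898), rab-11.1/rpl-7 (1105), rpl-12/lin-54 (1089), rpl-36.A/nuo-1 (879), rps-9/lsm-1 (424) and rpl-28/mrpl-49 (328), among others. At the lower end were mrps-6/rpn-8 (53.3), eif-4A3/vps-20 (47.7) and the collagen pair col-117/col-3 (46.3). Genes with a name of the gene-class form made up 69.5% of the members' nearest genes, 70.1% of those of single-gene promoter peaks and 54.6% of all protein-coding genes.

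In the letters within 50 bp of the summit, ACCGTA had the largest excess at divergent over single-gene promoters of all 2080 6-mers, each counted with its reverse complement. It stood at 135 of 827 members (16.3%, 13.9 to 19.0) and at 124 of 1770 single-gene promoter peaks (7.01%, 5.86 to 8.30). It stood at 4.04% of peaks in no window, at 2.24% of windows 300 bp to either side of members and at 4.52% of windows of the same length at the midpoints of all head-to-head pairs. Median GC content was 45.5% at members and at single-gene peaks, and the next 6-mer by this excess was AAAAAT (37.4% and 28.1%, with 47.3% in the members' flanks).

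The median pooled signal was 572 for members with ACCGTA and 127 for members without it. By rank, ACCGTA stood at 48 of 59 members among the 100 strongest IDR peaks (81.4%, 69.1 to 90.3) and at 25 of 32 single-gene peaks there (78.1%, 60.0 to 90.7). The shares were 29.1% and 19.2% at the next 400 ranks, 13.9% and 7.80% at 501 to 1000, 4.21% and 4.04% at 1001 to 2000, and 5% and 3.34% below. The share was higher at members in all 5 bands, and within each band the 95% intervals of the 2 classes overlapped. With wider bands by signal they did not overlap at the top, where, from a signal of 222 upward, ACCGTA stood at 38.0% of 276 members (32.3 to 44.1) and at 23.7% of 300 single-gene peaks (19.0 to 28.9). That band has no upper limit, and its median signal was 401 for members and 341 for single-gene peaks, so signal was not matched. The intervals overlapped in the middle band (6.18% and 4.08%) and the lowest band (4.71% and 3.37%). ACCGTA lay a median of 15.5 bp from the summit, and 55.4% of its copies were on the sense strand of the nearer gene.

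**Figure D4:**
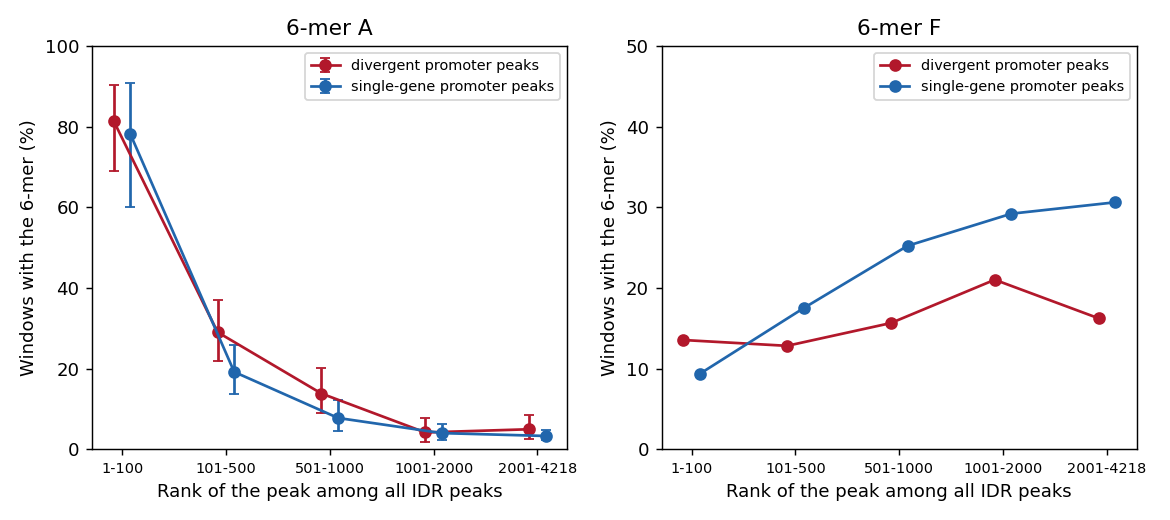
Share (%) of windows within 50 bp of the summit with ACCGTA (6-mer A, left, with 95% exact intervals) and GAGAGA (6-mer F, right) by rank of the peak, for divergent promoter peaks in red and single-gene promoter peaks in blue. ACCGTA falls from 81.4% and 78.1% in the first band to 5% and 3.34% in the last, while GAGAGA is lower at divergent promoters in every band but the first.

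GAGAGA showed the opposite order. It was present at 16.6% of members (14.1 to 19.3), 27.9% of single-gene promoter peaks (25.8 to 30.1) and 36.1% of peaks in no window, against 5.74% in the members' flanks. By rank the shares at members and at single-gene peaks were 13.6% and 9.38% in the first 100, 12.8% and 17.5% at the next 400 ranks, 15.7% and 25.2% at 501 to 1000, 21.0% and 29.2% at 1001 to 2000, and 16.25% and 30.6% below. The lower share at divergent promoters was therefore present in each band but the first. The longer string AGACGCAG, which contains GACGCA, was found at 6.89% of members and 13.2% of single-gene peaks.

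Members and their own flanks differed in base composition, with a median GC content of 45.5% and 35.6%, as did single-gene peaks and theirs (45.5% and 34.7%). ACGCGC was the first of all 6-mers by the difference from the flanks, at 20.8% of members and 0.967% of flanking windows, and it stood at 15% of single-gene peaks, 1.38% of their flanks and 5% of peaks in no window. GCAAAC came second, at 20.6% and 4.05%, with 14.5% at single-gene peaks. GCGCAC, which can overlap ACGCGC, was at 17.5% and 1.03%, with 10.1% at single-gene peaks. GACGCA was at 16.1% and 1.81%, and here single-gene peaks had the higher share, 19.8%. The strings TATAAA (5.32% of members, 12.8% of flanks) and CCGCCC (6.53% and 1.27%) were uncommon at members and nearly as frequent at single-gene peaks (5.25% and 5.59%). These windows lie around summits and not around starts, so they do not show whether a promoter has either string near its start.

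**Figure D5:**
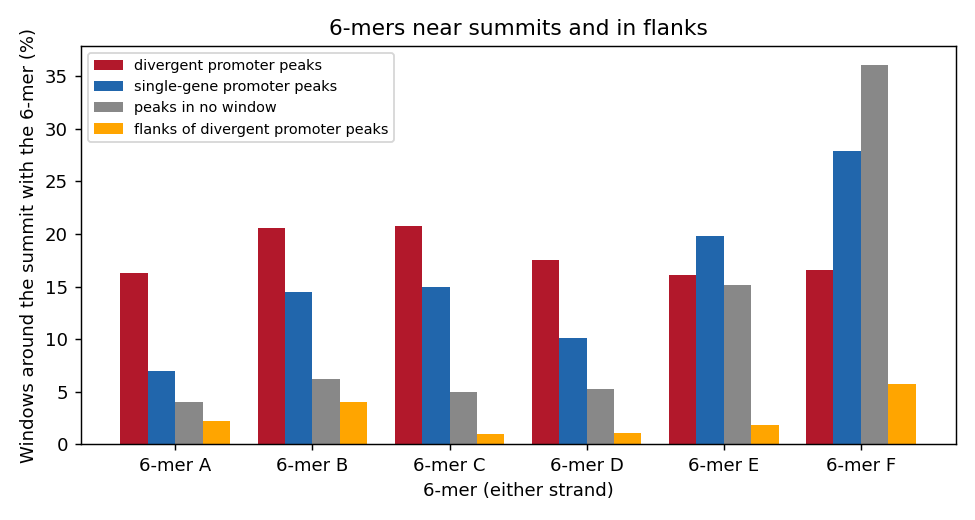
Share (%) of windows within 50 bp of the summit that hold each 6-mer in either orientation. The 6-mer called A is ACCGTA, the one called B is GCAAAC, the one called C is ACGCGC, the one called D is GCGCAC, the one called E is GACGCA and the one called F is GAGAGA. Bars are divergent promoter peaks (red), single-gene promoter peaks (blue), peaks in no window (grey) and windows 300 bp from divergent promoter peaks (orange). A to D are highest at divergent promoters, and F is highest at peaks in no window (36.1%).

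Longer strings repeated this. The 8-mer GCAAACAC was at 103 members (12.5%, 10.3 to 14.9), 7.51% of single-gene peaks, 2.18% of peaks in no window and 0.242% of the members' flanks. It lay a median of 11.5 bp from the summit and contains GCAAAC. GCGCTCCA was at 8.59% of members and 3.73% of single-gene peaks. GCGAGACC, which holds the GAGACC marked in the sequences above, was at 7.38% and 2.43%, and GAGACC itself at 14.0% (11.7 to 16.6) and 7.74% (6.54 to 9.08), with 2.42% in the members' flanks and 4.48% at the midpoints of head-to-head pairs.

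The strings met in part of the members. GCAAACAC stood in 34 of the 135 windows with ACCGTA (25.2%), against 12.5% of all members. This is 33.0% of the 103 windows with GCAAACAC, where 16.3% of all members had ACCGTA. GCGAGACC stood in 22 of the 135 (16.3%), against 7.38% of all members, which is 36.1% of its own 61 windows. Other strings were not more frequent with ACCGTA than over all members. They were GACGCA (12.6% against 16.1%), GAGAGA (13.3% against 16.6%) and ACGCGC (20.7% against 20.8%). The direct run of GCAAACAC into ACCGTA, as printed for rpl-15, was found at 1 member. At single-gene promoter peaks GCAAACAC stood in 31 of 124 windows with ACCGTA (25%), against 7.51% of all such peaks.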

How the data were processed

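ChIP-seq of eGFP-tagged LSY-2 was deposited by the authors as narrowPeak lists on ce11 for each replicate, for the pool and past the IDR threshold. The deposited signal of each peak is relative to a control alignment, per the text listings among the deposited files. For its statistic, the aligner and the peak caller, nothing is given in the sources used here. The deposited IDR list held the 4218 strongest of 30000 pooled peaks. Lists on ce10 were not used here, and coordinates were not converted. The lists carry no read counts, so depth is unknown, and each interval covers counting error over peaks or genes alone. Replicates were 2 biological replicates of 1 group, so no test between conditions was made.

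Summits, counted from 1, were matched to Ensembl release 115 gene models on WBcel235 and the RefSeq sequence of that assembly. A replicate's signal at a peak is that of its nearest summit within 200 bp. Letter strings were counted within 50 bp of summits, in flanks 300 bp away and at midpoints of head-to-head pairs. The 16 gene lists were built from gene names, and names of the same families that a first pattern had missed, such as rpl-7A, mrps-18A and nduc-2, were added after values were seen. The members, lists and strings were chosen with earlier results of these data known, and the 8-mers, GAGACC, rank bands, distance classes, the 300 bp count upstream of genes and string pairs after values were seen. Named genes are the nearest genes of the 20 strongest members and the 3 weakest, up to 4 of the strongest in each list, members with both genes in lists, those with the shortest and the 3 longest distances between starts, the promoter with most peaks, and the 5 most unequal between replicates each way. Sequences were printed for the strongest members with no annotated gene in the window, without those on chromosome I, whose sequence is not reported here. Peaks just below the threshold, T26A8.4/pdtf-1 and cct-2 were named after their values were seen.

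Alternatives covered other windows, starts, peak lists, peak positions and string distances. The lookup of positions was checked on simulated summits, planted in divergent promoter sequence or outside every window, and 1000 of 1000 fell in the planted class. They were drawn from the same promoter windows that the classification uses, and none was planted in the single-gene class. The check therefore covers the lookup only. Tables were handled with pandas 2.3.3 and numpy 2.4.6 in Python 3.11.15, intervals came from scipy 1.17.1, and plots from matplotlib 3.10.9.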

Additional observations from a re-analysis of the deposited data

How the results depend on the processing

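The number of members stayed within 1.5 times of 827 under all 8 alternatives, from 581 (windows of 500 bp upstream to 100 bp downstream) to 1149 (2000 bp upstream). The ratio of median signals, 1.64 in the pooled list, stayed above 1 in each: 1.69 and 1.68 with the narrower and the wider windows, 1.56 with the most upstream start of each gene, 1.66 with any base of the peak, 1.57 without ribosomal protein gene windows, 1.25 within the IDR peaks above the median signal, where the range is cut, and from 1.60 to 1.63 without either replicate. Its tolerance was the SD of 2 replicates, which is small, and the ratio moved beyond it under all 8 alternatives. The bound share of head-to-head pairs, 29.0%, was 30.9% with the narrower windows, 30.9% with any base of the peak and 21.7% with fewer peaks, those above the median signal. The share of summits between the starts stayed from 92.7% to 94.2%. ACCGTA at members ranged from 11.2% within 25 bp to 20.4% above the median signal, and GAGAGA from 8.83% within 25 bp to 24.3% within 100 bp, where the searched length differs. No paired analysis was possible because there is 1 group and no test.

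The deposited signal and lists limit the account: no reads, depth, input values or expression were used, and the 2 replicates allow no estimate of spread beyond an SD. A peak shows that tagged protein was found near a site in whole larvae.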

Other observations

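Annotated non-coding genes lay near some of the divergent promoter peaks. The summit fell in the promoter window of a gene of the class ncRNA at 89 members (10.8%) and at 13.7% of single-gene promoter peaks, in that of a snoRNA gene at 22 members (2.66%, against 2.60%), in that of a piRNA gene at 12 (1.45%, against 2.99%) and in that of a tRNA gene at 4 (0.484%, against 2.20%).

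Repeat-masked letters of the reference made up a mean of 28.5% of the bases within 50 bp of the summit at members and 21.6% at single-gene promoter peaks, while in windows 300 bp away they made up 29.9% and 33.7%. In the 103 members with GCAAACAC the mean was 35.1%. Of 4218 IDR peaks, 22 shared their interval with another peak, and none of these was a member.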
